A study of Bos taurus with 9 samples.

Results

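The 10 genes described here encode amino acid transporters of the plasma membrane, chosen by name. Of the SLC7 family these are the cationic carrier SLC7A1 and the light chains SLC7A5, SLC7A8 and SLC7A11, with the light-chain partner SLC3A2. The others are the sodium-coupled neutral amino acid transporters SLC38A1 and SLC38A2, and SLC1A1, SLC1A4 and SLC1A5 of the glutamate and neutral amino acid transporter family. The transporters are 10 of 24596 genes in the deposited table, and 9 of them had enough reads to be tested among 11839 tested genes. The exception was SLC7A11. RNA came from bovine endometrial epithelial cells (BEEC), primary Bos taurus cells scraped from the lining of 3 uteri at the early luteal stage, grown in medium with fetal bovine serum, frozen and thawed. Morulae, in groups of 5, were placed on the cells at day 4 after fertilisation and stayed with them up to day 8; the BEEC were then collected, 3 wells to a sample. The embryos, not the endometrial cells, had been pre-conditioned beforehand, and the groups are named after that treatment: control (replicates 5, 9 and 13), HIGHGLUC (replicates 6, 10 and 14) and LOWAA (replicates 8, 12 and 15). By their names the latter 2 stand for high glucose and low amino acids, but no concentrations are given. All 3 groups had embryos on them, so no group shows BEEC without embryos. Each group held 3 libraries.

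Amino acids cross the plasma membrane through several kinds of transporter. Exchangers swap an amino acid outside the cell for one inside, and sodium-coupled carriers use the sodium gradient to load the cell. SLC3A2 (4F2hc, CD98) is a heavy chain that transports nothing itself: it carries a light chain of the SLC7 family to the membrane, and the light chain sets which amino acids pass. In mammalian cells SLC38A2 and several SLC7 genes are known targets of the transcription factor ATF4, which acts when amino acids are short, and leucine brought in through SLC7A5 feeds the growth regulator mTORC1. In ruminants and other mammals the uterine lining passes amino acids to the embryo before the placenta forms.

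The libraries held 2887097 (control replicate 5) to 13969325 exon reads (control replicate 9). In order of library number each run of 3 libraries held 1 of each group. These runs are called sets here: set 1 is replicates 5, 6 and 8, set 2 is 9, 10 and 12, and set 3 is 13, 14 and 15. The meaning of these numbers is not given, nor is any library linked to its own animal or culture, so p-values measure only the spread between these libraries, which may be technical. The cells had epithelial and stromal transcripts together. The 6 epithelial markers summed to 7770 to 9087 CPM (exon reads scaled to a fixed library total, with TMM factors), with KRT8 at a mean of 4450 CPM, while EPCAM, one of the 6, had 0.154 CPM. The 8 stromal fibroblast markers summed to 10776 to 13164 CPM, with COL3A1 at 5080 CPM. The 5 leukocyte markers summed to 11.16 to 17.63 CPM, with CD163 at a mean of 8.616 CPM and CD14 at 5.299 CPM, and PTPRC and CD3E had 0 reads in every library. Further, the 2 embryo markers in the table summed to at most 0.353 CPM. In such bulk samples fewer cells of a type and less RNA per cell cannot be told apart.

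Compared per kilobase of exon, the transporters spanned a wide range of levels and the group means stood in the same order in all 3 groups. SLC3A2 was highest at a mean of 159.6 CPM per kilobase over the 9 libraries (range 149.3 to 180.6). SLC1A1, which takes up glutamate and aspartate with sodium and also cysteine, followed at 104.1, and SLC38A2 (SNAT2), which takes up small neutral amino acids with sodium, at 79.73. SLC7A8 (LAT2), a light chain for neutral amino acids, had 54.22 CPM per kilobase. Below these came SLC1A5 (ASCT2), the main glutamine exchanger of many cells, at 25.2 CPM per kilobase. SLC38A1 (SNAT1), a sodium-coupled glutamine carrier, had 12.52 and SLC7A1 (CAT-1), the general carrier of arginine and lysine, had 11.17. SLC1A4 (ASCT1), an exchanger of serine, alanine and cysteine, had 6.734 with all exon reads and 2.405 with uniquely matched reads. SLC7A5 (LAT1), the light chain for leucine and other large neutral amino acids, had 4.346 CPM per kilobase.

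Some neighbours in this order were not apart beyond their spread. The ranges over libraries did not overlap between SLC3A2 and SLC1A1, between SLC1A1 and SLC38A2, between SLC7A8 and SLC1A5, or between SLC1A5 and SLC38A1. They did overlap between SLC38A2 and SLC7A8, between SLC38A1 and SLC7A1, between SLC7A1 and SLC1A4 and between SLC1A4 and SLC7A5. SLC38A2 exceeded SLC7A8 in 8 of 9 libraries. SLC38A1 exceeded SLC7A1 in 8 of 9 libraries, and SLC7A1 exceeded SLC1A4 in 6 of 9. SLC1A4 exceeded SLC7A5 in 4 of 9 libraries, and with unique reads its mean, 2.405 CPM per kilobase, was below that of SLC7A5, 4.551. Exon lengths ranged from 1512 bases for SLC38A1 to 4781 for SLC38A2. Where a model holds no UTR its level per kilobase may be set too high against the others. The lengths of SLC7A1 (1890), SLC3A2 (2040), SLC38A1 (1512) and SLC1A1 (3576) are multiples of 3, which alone does not show that a UTR is missing. Reads across exon junctions made up 50.86%, 49.68%, 73.28% and 23.92% of their exon reads. Which models lack a UTR was not tested. Among all tested genes SLC3A2 stood at the 95.91 percentile of level per kilobase and SLC7A5 at the 21.41 percentile.

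**Figure D1:**
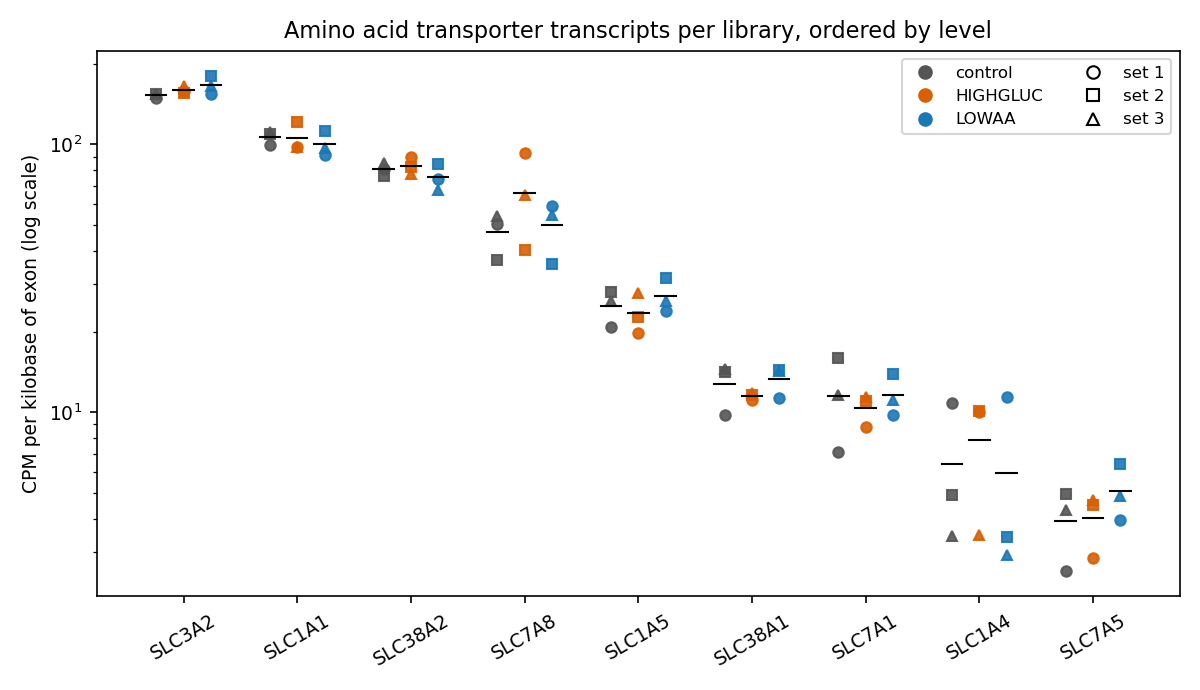
Level of each of the 9 tested transporters in each library, as CPM per kilobase of exon on a log axis; colours are the groups, marker shapes the sets of library numbers, and black bars the means of 3 libraries. SLC3A2 sits at 149.3 to 180.6 in all libraries, while SLC1A4 has the widest spread in each group. SLC7A8 runs from 40.27 to 92.45 in HIGHGLUC and from 36.87 to 54.09 in control, where SLC7A1 runs from 7.09 to 15.87.

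No transporter passed the test in any comparison. The test was the quasi-likelihood test of edgeR on the total exon reads with adjusted p (Benjamini-Hochberg over all tested genes) under 0.05. For HIGHGLUC against control 0 of 9 transporters passed, where the share over all tested genes was 0%. At unadjusted p under 0.05 there were 0 of 9, beside 2.98% of all tested genes. For LOWAA against control 0 of 9 passed (0% of all genes) and 0 of 9 had unadjusted p under 0.05 (4% of all genes). For LOWAA against HIGHGLUC 0 of 9 passed (0% of all genes) and 0 of 9 had unadjusted p under 0.05 (3.18% of all genes). In the test over all 3 groups 0 of 9 passed (0% of all genes) and 0 of 9 had unadjusted p under 0.05 (2.96% of all genes). DESeq2 also called 0 of 9 in each comparison, beside 0%, 0.0339% and 0.0254% of the genes it tested, and limma-voom called 0 of 9, beside 0% of all genes. The intervals of the differences are given with each gene below. They come from the fit without the sets as a term, and 5 of the 27 exclude 0 in the fit with the sets, for SLC7A8, SLC7A5 and SLC1A5, as given with the processing alternatives.

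**Figure D2:**
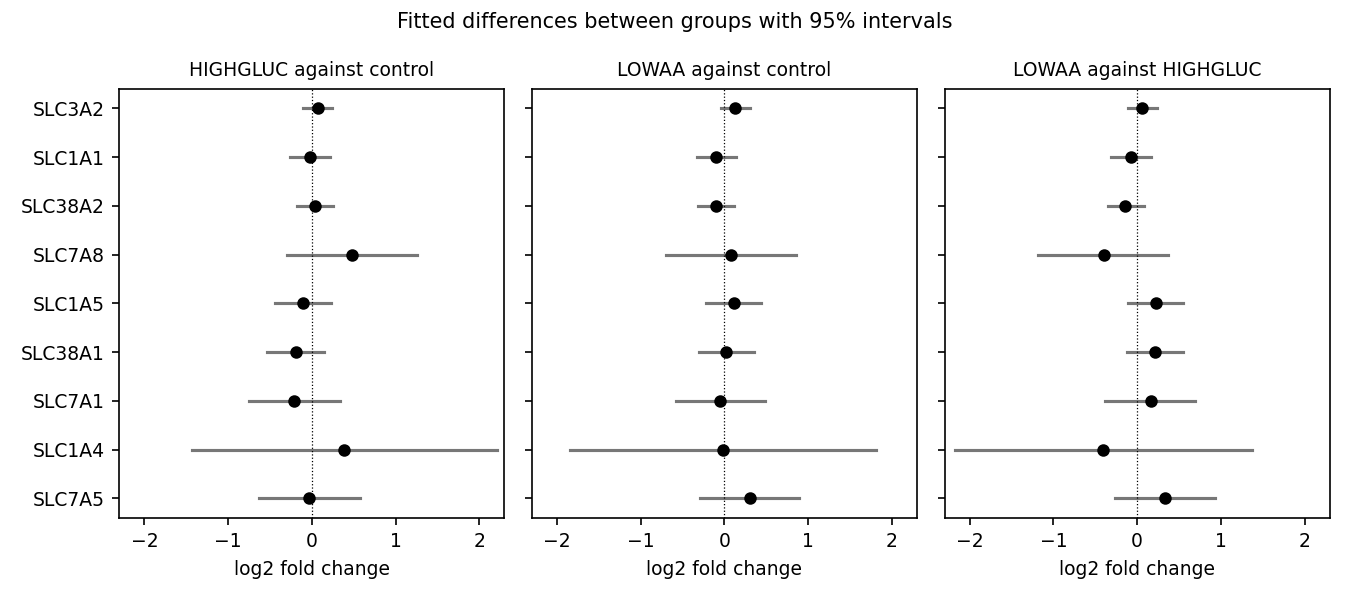
Fitted log2 fold change (points) with its 95% interval (lines) for the 9 tested transporters in the 3 comparisons, from edgeR with 3 libraries per group. Every interval includes 0, and the widest is that of SLC1A4 and the narrowest that of SLC3A2.

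The heavy chain SLC3A2 (chr29:41855870-41896760 in the table's UMD3.1 coordinates, 12 exons) varied least. It had 304.7, 313.7 and 314.2 CPM in control replicates 5, 9 and 13. In HIGHGLUC replicates 6, 10 and 14 it had 324.0, 316.2 and 336.7 CPM, and in LOWAA replicates 8, 12 and 15 it had 315.1, 368.5 and 337.8 CPM. All 6 libraries of the other groups were thus above all 3 control libraries, although the nearest values were 314.2 and 315.1 CPM. Groups failed to overlap for 1 of 9 transporters in HIGHGLUC against control, beside 7.36% of all tested genes, and for 1 of 9 in LOWAA against control, beside 9.71%, and SLC3A2 was that gene in both, which share the control libraries. With no scaling factor the lowest HIGHGLUC library had 317.0 CPM and the lowest LOWAA library 310.0, and the highest control library had 319.1, so the groups then overlapped. The fitted log2 fold change was 0.07 ± 0.08 (SE, n = 3 per group) for HIGHGLUC against control, with a 95% interval of -0.11 to 0.24 and adjusted p = 0.9999 in edgeR. For LOWAA against control it was 0.13 ± 0.08, with an interval of -0.04 to 0.31 and adjusted p = 1 in edgeR. LOWAA and HIGHGLUC overlapped, as did these groups for 9 of 9 transporters, where 8.3% of all tested genes did not overlap. In folds the intervals against control are 0.93 to 1.18 and 0.97 to 1.24. Of the reads in the SLC3A2 gene 19.7 to 31.35% lay in introns over the libraries, against 7.054 to 13.7% of reads over all genes.

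SLC7A8 (chr10:21521554-21573888, 11 exons) had the largest fitted difference among transporters with unique reads. It had 179.8, 131.1 and 192.4 CPM in control replicates 5, 9 and 13. It had 328.8, 143.3 and 229.1 CPM in HIGHGLUC replicates 6, 10 and 14, and 210.2, 127.6 and 193.4 CPM in LOWAA replicates 8, 12 and 15. HIGHGLUC replicate 6 stood highest of all libraries, and the lowest value of each group was its set 2 library, so the groups overlapped. For HIGHGLUC against control the log2 fold change was 0.48 ± 0.33 (SE, n = 3 per group), with an interval of -0.30 to 1.26 and unadjusted p = 0.188 in edgeR. Within the sets HIGHGLUC exceeded control 1.83-fold in set 1, 1.09-fold in set 2 and 1.19-fold in set 3. LOWAA against HIGHGLUC gave -0.40 ± 0.33, with an interval of -1.18 to 0.37, and LOWAA against control gave 0.08 ± 0.33, with an interval of -0.70 to 0.86. Without HIGHGLUC replicate 6 the log2 fold change for HIGHGLUC against control was 0.15, and without HIGHGLUC replicate 10 it was 0.74.

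SLC7A5 (chr18:13341370-13370494, 10 exons) was at a lower level per kilobase than SLC7A8 in every library. It had 10.2, 19.9 and 17.2 CPM in control replicates 5, 9 and 13. In HIGHGLUC replicates 6, 10 and 14 it had 11.4, 18.1 and 18.9 CPM, and in LOWAA replicates 8, 12 and 15 it had 15.9, 25.7 and 19.5 CPM. In each group the set 1 library was the lowest, and the groups overlapped. LOWAA exceeded control in all 3 sets, by 1.55-fold, 1.29-fold and 1.13-fold. For LOWAA against control the log2 fold change was 0.30 ± 0.26 (SE, n = 3 per group), with an interval of -0.29 to 0.89 and unadjusted p = 0.279 in edgeR. For LOWAA against HIGHGLUC it was 0.33 ± 0.26, with an interval of -0.26 to 0.93, and for HIGHGLUC against control it was -0.03 ± 0.27, with an interval of -0.63 to 0.57. Without control replicate 5 the value for LOWAA against control was 0.12, and without LOWAA replicate 12 it was 0.10.

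SLC3A2 has 6 known light-chain partners, and 4 of them had enough reads to test: SLC7A5, SLC7A6 and SLC7A7 (the y+L exchangers of cationic against neutral amino acids) and SLC7A8. SLC7A10 had 0 reads, which allows up to 3 in a library, and SLC7A11 is described last. The ratio of the summed light chains to SLC3A2, both in CPM per kilobase, was 0.558 ± 0.0506 (SD, n = 3) in control, 0.656 ± 0.186 in HIGHGLUC and 0.569 ± 0.123 in LOWAA. HIGHGLUC replicate 6 had the highest ratio, 0.862, and without it the HIGHGLUC mean was 0.552. SLC7A8 gave 45.13 to 67.52% of the light-chain level in each library, and SLC7A5 gave 2.08 to 8.046%. SLC7A7 gave 16.72 to 26.95% and SLC7A6 gave 11.04 to 22.33%. The ratio was thus below 1 in all 9 libraries as the table gives the exon lengths, of which that of SLC3A2, a multiple of 3, may lack a UTR and so set the ratio too low.

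**Figure D3:**
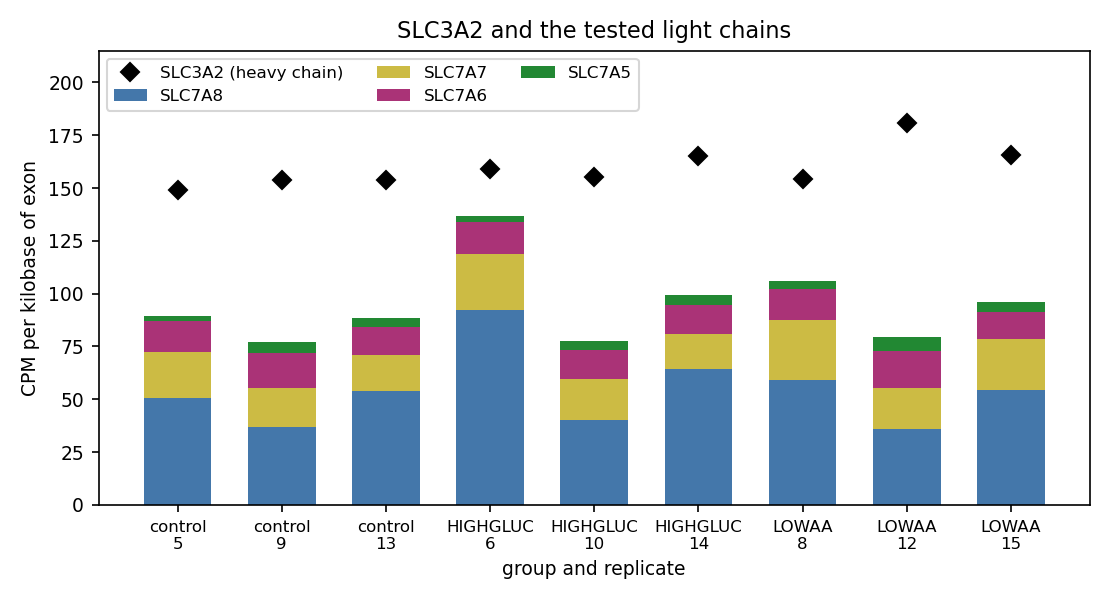
Stacked bars give the 4 tested light chains in CPM per kilobase of exon in each library, and diamonds give SLC3A2 on the same axis. The diamonds lie above the bars in all 9 libraries, and the bar of HIGHGLUC replicate 6 comes nearest, at a ratio of 0.862.

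SLC7A1 (chr12:31004651-31019183, 11 exons) needs no heavy chain. It had 13.4, 29.99 and 22.0 CPM in control replicates 5, 9 and 13. It had 16.6, 20.7 and 21.5 CPM in HIGHGLUC replicates 6, 10 and 14, and 18.5, 26.2 and 21.0 CPM in LOWAA replicates 8, 12 and 15. The control libraries held both the lowest and the highest value. The log2 fold change was -0.21 ± 0.24 (SE, n = 3 per group) for HIGHGLUC against control, with an interval of -0.75 to 0.34. It was -0.05 ± 0.24 for LOWAA against control, with an interval of -0.58 to 0.48. Without control replicate 9 these became 0.09 and 0.25, so their sign rested on that library.

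**Figure D4:**
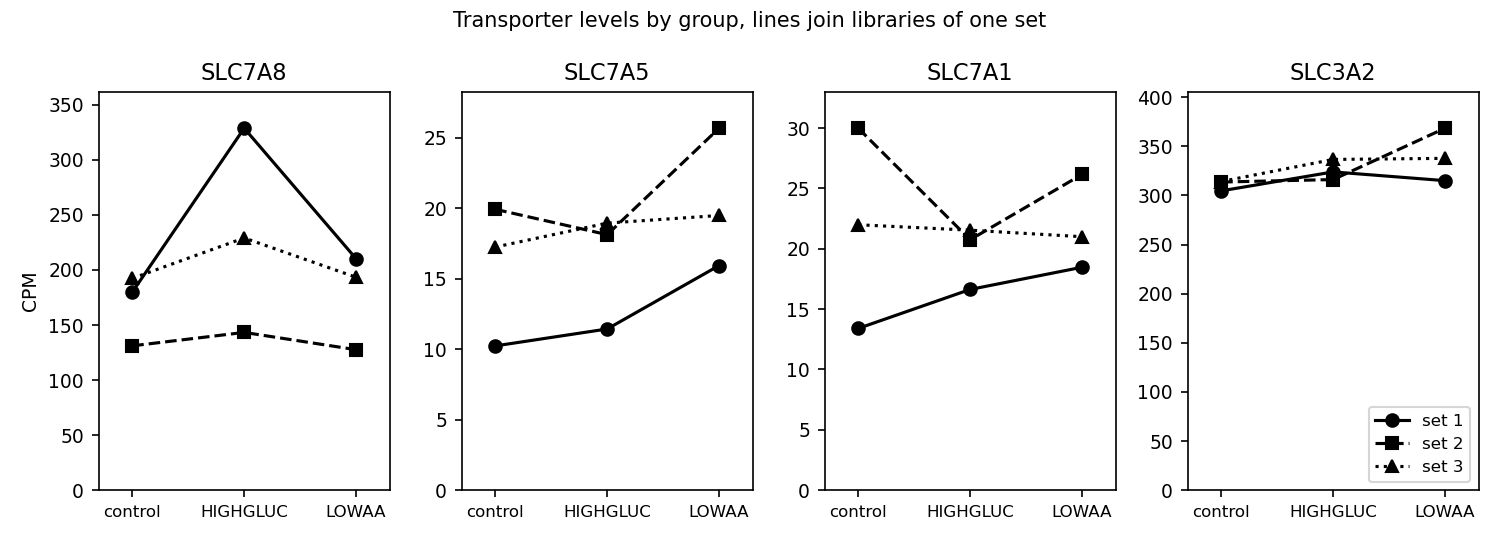
CPM of SLC7A8, SLC7A5, SLC7A1 and SLC3A2 by group, with axes from 0 and lines that join the 3 libraries of a set. In SLC7A8 the set 2 libraries, 127.6 to 143.3 CPM, lie below the others in each group, and in SLC7A5 the set 1 libraries, 10.2 to 15.9 CPM, do.

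The neighbours SLC38A1 and SLC38A2 lie 102242 bases apart on chromosome 5 with 0 genes of the table between them. SLC38A2 (chr5:34028552-34042996, 16 exons) had 386.8, 365.6 and 407.9 CPM in control replicates 5, 9 and 13. It had 426.9, 392.2 and 369.8 CPM in HIGHGLUC replicates 6, 10 and 14, and 353.5, 405.1 and 322.9 CPM in LOWAA replicates 8, 12 and 15. The highest library was in HIGHGLUC and the lowest in LOWAA, with overlap between all groups. A log2 fold change of 0.04 ± 0.10 (SE, n = 3 per group) was fitted for HIGHGLUC against control, with an interval of -0.18 to 0.25. It was -0.10 ± 0.10 for LOWAA against control, with an interval of -0.32 to 0.11, and -0.14 ± 0.10 for LOWAA against HIGHGLUC, with an interval of -0.35 to 0.08. The fold intervals against control were thus 0.88 to 1.19 and 0.80 to 1.08.

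SLC38A1 (chr5:34145239-34198996, 15 exons) had 14.8, 21.3 and 21.9 CPM in control replicates 5, 9 and 13. It had 16.7, 17.5 and 17.8 CPM in HIGHGLUC replicates 6, 10 and 14, and 17.1, 21.7 and 21.5 CPM in LOWAA replicates 8, 12 and 15. The HIGHGLUC libraries were close together, inside the range of the control libraries. A log2 fold change of -0.19 ± 0.15 (SE, n = 3 per group) was fitted for HIGHGLUC against control, with an interval of -0.53 to 0.14. For LOWAA against control it was 0.02 ± 0.15, with an interval of -0.31 to 0.35. LOWAA exceeded HIGHGLUC in all 3 sets, with a log2 fold change of 0.21 ± 0.15 and an interval of -0.12 to 0.55. Reads across exon junctions made up 69.71 to 78.29% of its exon reads, against 39.7 to 41.77% over all genes.

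SLC1A1 (chr8:40178393-40253322, 12 exons) had 356.2, 391.4 and 399.0 CPM in control replicates 5, 9 and 13. It had 349.0, 432.6 and 348.6 CPM in HIGHGLUC replicates 6, 10 and 14, and 327.4, 400.9 and 345.2 CPM in LOWAA replicates 8, 12 and 15. In HIGHGLUC and LOWAA the set 2 library was the highest. The log2 fold change was -0.02 ± 0.11 (SE, n = 3 per group) for HIGHGLUC against control, with an interval of -0.26 to 0.22, and -0.10 ± 0.11 for LOWAA against control, with an interval of -0.33 to 0.14. LOWAA was below HIGHGLUC in all 3 sets, at 0.94-fold, 0.93-fold and 0.99-fold, with a log2 fold change of -0.07 ± 0.11 and an interval of -0.31 to 0.16.

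SLC1A5 (chr18:54302392-54313935, 8 exons) had 59.9, 80.8 and 74.6 CPM in control replicates 5, 9 and 13. It had 57.03, 65.3 and 79.9 CPM in HIGHGLUC replicates 6, 10 and 14, and 69.0, 91.6 and 74.7 CPM in LOWAA replicates 8, 12 and 15. The set 1 library was the lowest in each group. The log2 fold change was -0.11 ± 0.15 (SE, n = 3 per group) for HIGHGLUC against control, with an interval of -0.44 to 0.23. It was 0.11 ± 0.15 for LOWAA against control, with an interval of -0.22 to 0.44, and 0.22 ± 0.15 for LOWAA against HIGHGLUC, with an interval of -0.11 to 0.55.

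SLC1A4 (chr11:63337654-63367589, 8 exons) spread most between libraries, and its reads differed in kind from those of the other transporters. It had 48.0, 21.8 and 15.3 CPM in control replicates 5, 9 and 13. It had 44.5, 44.8 and 15.5 CPM in HIGHGLUC replicates 6, 10 and 14, and 50.6, 15.1 and 12.9 CPM in LOWAA replicates 8, 12 and 15. Control replicate 5, HIGHGLUC replicates 6 and 10 and LOWAA replicate 8 were high, and the other 5 libraries low, in every group. Counted with uniquely matched reads only, SLC1A4 had 11.8, 10.7 and 10.9 CPM in control, 10.5, 11.3 and 10.3 in HIGHGLUC and 11.1, 9.90 and 9.43 in LOWAA. The values of the 4 high libraries, 10.5 to 11.8 CPM, then overlapped those of the other 5, 9.43 to 10.9 CPM, though within each group they were still the higher ones. The multiply matched reads, which fit several places in the genome, came to 33.77 to 39.43 CPM, before TMM scaling, in the 4 high libraries and 3.893 to 11.74 in the other 5. Of all its exon reads 35.86% were unique, while the other 9 transporters had 100% unique reads, as did 87.0% of all tested genes. These 4 libraries also had the largest shares of multiply matched reads over all genes, 5.03 to 5.37% against 3.81 to 4.27%. The gene ENSBTAG00000046117, 597 exon bases within the SLC1A4 gene, had 1779 exon reads of which 14 were unique, and how reads were split between overlapping genes was not tested.

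The fitted log2 fold change of SLC1A4 was 0.39 ± 0.75 (SE, n = 3 per group) for HIGHGLUC against control, with an interval of -1.43 to 2.21. With unique reads it was -0.05. For LOWAA against control it was -0.02 ± 0.76, with an interval of -1.85 to 1.81. The 4 high libraries were those with over 20 CPM of multiply matched SLC1A4 reads, before TMM scaling. Among 257 tested genes with under 50% unique reads, the multiply matched reads, in CPM before TMM scaling, were compared between libraries. In 127 of them, or 49.4%, these 4 libraries all lay above the other 5. SLC1A4 is itself among the 127, and no share is given for the other tested genes. The genes whose pattern over the 9 libraries was nearest to that of SLC1A4, by root mean square difference of centred log2 CPM, were TSG101 (0.206), LHFPL2 (0.218) and TIMP3 (0.218). Their shares of unique reads were 28.57%, 13.61% and 37.14%.

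**Figure D5:**
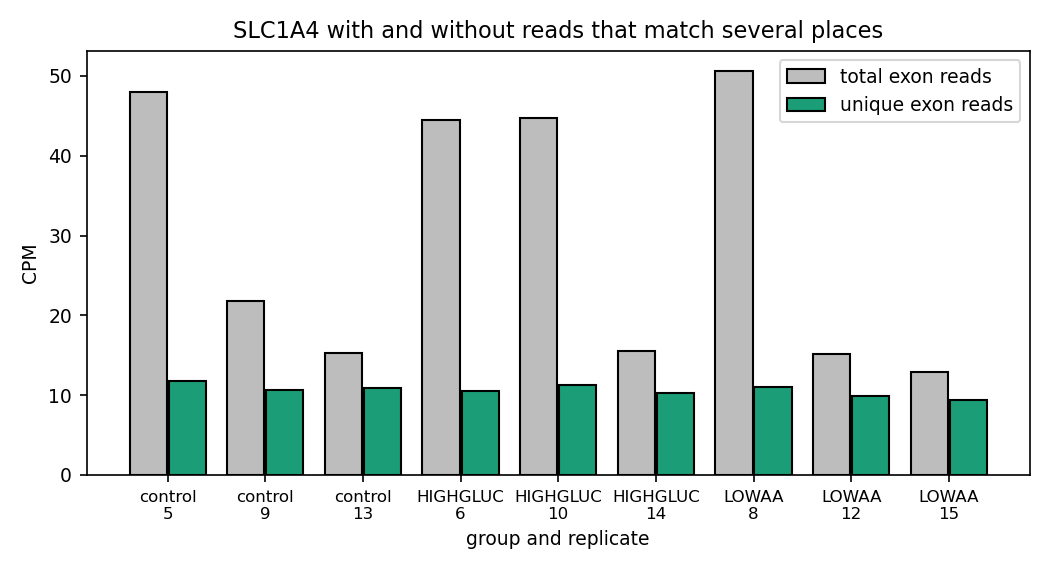
CPM of SLC1A4 in each library from total exon reads (grey) and from unique exon reads (green), with the axis from 0. The grey bars reach 44.5 to 50.6 in 4 libraries and 12.9 to 21.8 in the other 5, while the green bars lie between 9.43 and 11.8.

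SLC7A11 (xCT, chr17:19729365-19808282, 17 exons), which exchanges cystine for glutamate with SLC3A2, was at the limit of detection. It had 0, 9 and 4 exon reads in control replicates 5, 9 and 13. It had 0, 1 and 0 reads in HIGHGLUC replicates 6, 10 and 14, and 2, 2 and 1 reads in LOWAA replicates 8, 12 and 15. A library with 0 reads allows up to 3, which is 1.04 CPM in control replicate 5 and 0.332 and 0.433 CPM in HIGHGLUC replicates 6 and 14. The highest level seen, 0.634 CPM in control replicate 9, is thus below what a count of 0 allows in control replicate 5. The gene was not tested here, so no statement on a difference between groups is made. Baggerley's test of the authors gave it uncorrected p = 0.149 for HIGHGLUC against control, 0.498 for LOWAA against control and 0.148 for LOWAA against HIGHGLUC.

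Set means lay further apart than group means for most transporters, as for most tested genes. The range of the 3 set means of log2 CPM exceeded the range of the 3 group means in 7 of 9 transporters, and in 65.2% of all tested genes. The exceptions were SLC3A2, with a range of 0.08 between sets and 0.13 between groups, and SLC38A2, with 0.09 and 0.14. For SLC7A8 the ranges were 0.79 between sets and 0.42 between groups, and for SLC7A5 0.76 and 0.39. HIGHGLUC differed from control in the same direction in all 3 sets for 2 of 9 transporters (SLC7A8 and SLC3A2, both higher), beside 26.7% of all tested genes. LOWAA differed from control in the same direction in all 3 sets for 3 of 9, SLC7A5, SLC3A2 and SLC1A5, all higher, beside 32.1%, though SLC1A5 was at 1.00-fold in set 3. LOWAA differed from HIGHGLUC in the same direction for 4 of 9, beside 28.5%: SLC7A5 and SLC38A1 were higher and SLC7A8 and SLC1A1 lower, though SLC1A1 was at 0.99-fold in set 3. These counts describe the transporters and do not set them apart from the rest of the table.

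Over the 9 tested transporters the median log2 fold change was -0.02 for HIGHGLUC against control, with 4 of 9 above 0, beside 50% of all tested genes. For LOWAA against control it was 0.02, with 5 of 9 above 0 (50.9% of all genes), and for LOWAA against HIGHGLUC 0.06, with 5 of 9 above 0 (50.1%). The median of all tested genes was 0.00 in each. In the authors' deposited table of Baggerley's test no transporter had an FDR-corrected p under 0.05 in any comparison, all being 1, and its lowest uncorrected p for a transporter was 0.0652, for SLC3A2 in LOWAA against control. The authors' deposited table has 11, 77 and 44 of 24596 genes under 0.05 for HIGHGLUC against control, LOWAA against control and LOWAA against HIGHGLUC.

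Other amino acid transporters also had no member that passed the test. Counts above 0 in the gene lists from here on stand beside 50% of all tested genes in HIGHGLUC against control and 50.9% in LOWAA against control. Of the SLC3 and SLC7 genes outside the 10, 5 were tested, with 2 of 5 above 0 for HIGHGLUC against control (median log2 fold change -0.06) and 4 of 5 for LOWAA against control (median 0.06). SLC7A7 had the smallest p among them in LOWAA against control, with 39.1 ± 5.55 CPM (SD, n = 3) in control and 49.5 ± 9.32 in LOWAA, a log2 fold change of 0.36 ± 0.19 (SE) with an interval of -0.06 to 0.78. SLC3A1, the heavy chain of the cystine and dibasic amino acid carrier, had -0.10 ± 0.15 and SLC7A2, an arginine and lysine carrier, had 0.10 ± 0.34 in the same comparison. Of the other SLC38 genes 4 were tested, with 0 of 4 above 0 in HIGHGLUC against control and 1 of 4 in LOWAA against control. SLC38A10, at a mean of 159.2 CPM, had log2 fold changes of -0.02 ± 0.09 in both comparisons. SLC38A7 had -0.06 ± 0.09 and -0.11 ± 0.09, and SLC38A6 had -0.17 ± 0.19 and 0.02 ± 0.18.

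Of a further list of amino acid transporters 6 of 17 in the table were tested, with 2 of 6 above 0 in HIGHGLUC against control (median -0.13) and 4 of 6 in LOWAA against control (median 0.14). SLC43A2 (LAT4), a carrier of branched-chain amino acids and others by facilitated diffusion, had 107.6 CPM in control, 127.9 in HIGHGLUC and 118.9 in LOWAA. Its log2 fold changes were 0.25 ± 0.15 (SE) and 0.15 ± 0.14. SLC36A1, a proton-coupled carrier of small amino acids, had -0.21 ± 0.19 and -0.35 ± 0.19, SLC36A4 had 0.23 ± 0.25 in HIGHGLUC against control, and SLC6A17 had 0.27 ± 0.21 in LOWAA against control. Among the glutamate transporters outside the 10, SLC1A2 and SLC1A6 had 0 reads, SLC1A3 had 0.107 CPM and SLC1A7 had 0.792 CPM. SLC6A14, a broad neutral and cationic carrier, had 0.228 CPM.

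Genes of the pathways that read or answer amino acid supply were described beside the transporters. In the ATF4 amino acid response list, 21 of 24 genes were tested and 0 passed. Of these 5 of 21 were above 0 in HIGHGLUC against control (median -0.09), beside 50% of all tested genes. In LOWAA against control 11 of 21 were above 0 (median 0.01), beside 50.9%. In each of these comparisons 2 of 21 had unadjusted p under 0.05 in edgeR, beside 2.98% and 4% of all tested genes. In LOWAA against HIGHGLUC 15 of 21 were above 0 (median 0.12), beside 50.1% of all tested genes. There 3 of 21 had unadjusted p under 0.05 in edgeR, beside 3.18% of all tested genes. They were ATF4 itself (log2 fold change 0.22 ± 0.07, SE), PSAT1 (0.40 ± 0.15) and PYCR1 (0.27 ± 0.12), an enzyme of proline synthesis. ATF4 and PYCR1 are named after their values were seen. CHAC1, which breaks down glutathione, had 1.88 ± 0.347 CPM (SD, n = 3) in control, 2.89 ± 1.27 in HIGHGLUC and 4.56 ± 0.749 in LOWAA. Its 3 LOWAA libraries, 3.699 to 5.084 CPM, lay above the 3 control libraries, 1.478 to 2.116 CPM. The log2 fold change for LOWAA against control was 1.33 ± 0.33 (SE), with unadjusted p = 0.00167 and adjusted p = 1 in edgeR. CHAC1 passed in 1 alternative, with unique exon reads and the sets as a term (adjusted p = 0.0407 in edgeR). In that fit 57 of 11700 genes, or 0.487%, passed for LOWAA against control. The exon reads of CHAC1 were few, 48 over the 3 control libraries, 66 over those of HIGHGLUC and 125 over those of LOWAA. PSAT1, an enzyme of serine synthesis, had 32.6 CPM in control, 23.9 in HIGHGLUC and 31.4 in LOWAA, with a log2 fold change of -0.47 ± 0.16 (SE) for HIGHGLUC against control (unadjusted p = 0.0107 in edgeR). EIF2AK3 (PERK), a kinase of the endoplasmic reticulum stress response, had 60.03, 70.4 and 73.9 CPM, with log2 fold changes of 0.24 ± 0.10 and 0.31 ± 0.10 against control. ASNS, asparagine synthetase, had 0.03 ± 0.08 and 0.17 ± 0.08.

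In the list of amino acid sensing and mTORC1, 22 of 26 genes were tested, none with unadjusted p under 0.05 against control. Of these 12 of 22 were above 0 in HIGHGLUC against control (median 0.02) and 8 of 22 in LOWAA against control (median -0.03). The lysosomal scaffold gene LAMTOR2 had log2 fold changes of -0.21 ± 0.11 (SE) and -0.17 ± 0.11, and FLCN, which acts on the Rag GTPases, had 0.07 ± 0.21 and -0.39 ± 0.21. FNIP2, the partner of FLCN, had 0.18 ± 0.14 in both comparisons, RRAGC had 0.10 ± 0.09 in HIGHGLUC against control and MLST8, an mTOR complex subunit, had 0.22 ± 0.15 in LOWAA against control. In the list of NRF2 targets and cystine use, all 13 genes were tested and 0 passed. Of these 7 of 13 were above 0 in HIGHGLUC against control (median 0.00) and 5 of 13 in LOWAA against control (median -0.02). CHAC1, given above, is in this list too and had its smallest p in both comparisons. In LOWAA against control 1 of 13 had unadjusted p under 0.05 in edgeR, namely CHAC1, beside 4% of all tested genes. In HIGHGLUC against control 0 of 13 did, beside 2.98%. CD44, which stabilises SLC7A11 at the surface of human cells, had -0.15 ± 0.09 in HIGHGLUC against control, and SRXN1, an oxidative stress enzyme, had -0.28 ± 0.24. TXNRD1, thioredoxin reductase, had -0.22 ± 0.12 in LOWAA against control, and GCLC, the catalytic subunit for glutathione synthesis, had -0.28 ± 0.19.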

How the data were processed

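RNA of 9 libraries was sequenced as 50 bp reads on an Illumina HiSeq2000, per the labels, which give the library kit as single read while the file headers say paired; they also give passage 1 in the protocol and 2 in the sample fields. Bowtie2, HTSeq 0.5.4p2 and the build UMD3.1 are named in the submitters' processing notes without their roles. Per the file headers the deposited read columns for exons (total and unique), introns and junctions hold raw counts for each gene, with multiply matched reads inside the exon total. In the authors' columns the weighted proportions fold change is given as a signed score, and their p-value columns come from Baggerley's test. Exon length and gene position are other deposited columns that describe the annotation. Of the columns with library values, 90 were not used.

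Genes were kept with filterByExpr (minimum count 10), TMM factors were computed, and glmQLFit (robust) and glmQLFTest of edgeR 4.0.16 (R 4.3.3) gave the tests from a fit of all 9 libraries with no term but the group and Benjamini-Hochberg adjustment over 11839 genes. CPM are TMM-scaled, and log2 CPM use a prior count of 2. SE is the size of the log2 fold change divided by the square root of F, and 95% intervals use the total degrees of freedom. Alternatives were DESeq2 1.42.0, limma 3.58.1 (voom), RLE factors, no scaling, no filter, unique reads, sets as a term and leaving out each library. Figures were drawn with matplotlib 3.10.9 in Python 3.11.15. The scripts were tested on simulated data. No pair of libraries was a duplicate (within groups, chi-square over its degrees of freedom was 8.37 to 27). Limits from a count of 0 cover counting error only.

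The members, gene lists and tests were chosen with earlier results of these data known. Named genes were the 10 members, up to 3 genes per list with the smallest p in each comparison with control, and the nearest patterns to the most variable member. Named outside this rule, after their values were seen, were markers, the light chain SLC7A6, SLC7A10, SLC1A2, SLC1A3, SLC1A6, SLC1A7, SLC6A14, ATF4, PYCR1 and the nearest patterns to SLC7A8 and SLC7A5. The comparisons used no replicate block.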

Additional observations from a re-analysis of the deposited data

How the results depend on the processing

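Libraries were to count as pairs only if all those of a set correlated above 0.1 after removal of group means. This held for 7 of 9 pairs in the total exon reads (lowest 0.022), where 6 of 9 libraries were nearest to their own set in both other groups. In the unique reads it held for 9 of 9 pairs (0.198 to 0.452) and 9 of 9 libraries, a hint from the data and not from the design. No transporter passed the threshold in 486 alternatives to its 27 log2 fold changes, and 458 kept their direction. With the sets as a replicate block, 3, 19, 17 and 24 of all tested genes passed in HIGHGLUC against control, LOWAA against control, LOWAA against HIGHGLUC and the test over all groups, beside 0 without it, and with the block and unique reads 7, 57, 36 and 60 passed. DESeq2 called 4, 3 and 4 in the last 3 of these, and leaving out a library gave 0 to 1 in LOWAA against control. Under the block 1, 1 and 3 of 9 transporters had unadjusted p under 0.05 in the 3 comparisons, beside 6.66%, 8.27% and 8.08% of all genes. In the test over all groups 2 of 9 did, beside 8.88%. With the block and unique reads 1, 1, 3 and 2 of 9 did, beside 7.11%, 9.27%, 9.01% and 10.1%. With the block and total exon reads SLC7A8 had 0.42 ± 0.12 for HIGHGLUC against control (interval 0.15 to 0.68, unadjusted p = 0.00586 and adjusted p = 0.481 in edgeR). For LOWAA against HIGHGLUC it had -0.37 ± 0.12 (-0.63 to -0.10). SLC7A5 had 0.36 ± 0.13 for LOWAA against control (0.08 to 0.64, adjusted p = 0.433 in edgeR) and 0.34 ± 0.13 for LOWAA against HIGHGLUC (0.07 to 0.62), and SLC1A5 had 0.22 ± 0.09 for LOWAA against HIGHGLUC (0.02 to 0.42). With the block and unique reads SLC7A8 had 0.41 ± 0.11 for HIGHGLUC against control (0.18 to 0.65, adjusted p = 0.263 in edgeR). For LOWAA against HIGHGLUC it then had -0.37 ± 0.11 (-0.60 to -0.14, adjusted p = 0.213 in edgeR). SLC7A5 then had 0.35 ± 0.13 for LOWAA against control (0.08 to 0.61, adjusted p = 0.346 in edgeR). SLC1A4 had a mean of 10.65 CPM with unique reads in place of 29.83. Signs reversed outside of left-out libraries for SLC7A5 in HIGHGLUC against control (0.02 with the block, 0.01 with the block and unique reads), SLC1A4 in HIGHGLUC against control (-0.05 with unique reads, -0.06 with the block too), SLC38A1 in LOWAA against control (-0.04 with voom, -1.7e-03 with unique reads) and SLC1A4 in LOWAA against control (0.05 with voom); the cause was not tested. Leaving out a library reversed 10 values, over these ranges: for HIGHGLUC against control SLC7A1 -0.41 to 0.09, SLC7A5 -0.21 to 0.17, SLC38A2 -0.02 to 0.08 and SLC1A1 -0.13 to 0.03; for LOWAA against control SLC7A1 -0.26 to 0.25, SLC7A8 -0.07 to 0.27, SLC38A1 -0.11 to 0.13, SLC1A4 -0.93 to 0.51 and SLC1A5 -0.01 to 0.21; for LOWAA against HIGHGLUC SLC1A1 -0.16 to 0.04. Other scalings moved the median of all genes by at most 0.0078 in log2.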

Other observations

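The genes with the nearest patterns to the light chains SLC7A8 and SLC7A5 were sought after the values of both had been seen. Such a search always returns genes, and no distances of other genes are given, so the likeness is only described. Nearest to SLC7A8 over the 9 libraries, by root mean square difference of centred log2 CPM, were S100B (0.133), PIK3CD (0.137) and CD14 (0.155), all with 100% unique reads. S100B, a calcium-binding protein, had 72.2 CPM in HIGHGLUC replicate 6 and 29.0 to 49.6 CPM in the other 8 libraries. CD14, a receptor of monocytes that other cells can also carry, had 8.49 CPM in that library and 3.31 to 7.43 CPM in the others, while CD163, another monocyte and macrophage marker, had 5.638 to 12.69 CPM over the 9 libraries, with a log2 fold change of -0.60 ± 0.23 (SE) for HIGHGLUC against control, and PTPRC and CD3E had 0 reads. The part of such cells in the values of SLC7A8 was not tested. Nearest to SLC7A5 were SCARF2 (0.0861), MCM2 (0.096) and TNFRSF10D (0.113). MCM2, a subunit of the DNA replication helicase, had 40.7 to 65.3 CPM in the set 1 libraries and 71.5 to 93.4 CPM in the other 6.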
